A study of Mus musculus with 16 samples.

Results

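The effect of desipramine (DMI) on the dorsal root ganglia (DRGs) of nerve-injured mice was measured by RNA sequencing of 4 SNI-DMI and 4 SNI-Saline mice. These are 8 of the 16 libraries of the series, taken by their titles, and each is the L3 to L6 DRGs of 1 male C57BL/6J mouse aged 3 to 4 months. In both groups the common peroneal and sural branches of the sciatic nerve had been ligated and cut and the tibial branch spared (spared nerve injury, SNI). SNI-DMI mice then received DMI at 15 mg/kg i.p. 2 times per day for 3 weeks, and SNI-Saline mice received saline on the same schedule, starting 4 weeks after surgery by the labels, where the methods of the paper give months in place of weeks. Sham-DMI and Sham-Saline mice, 4 of each, had surgery without the nerve injury and the same treatments. No genotype differed between the groups. Males alone were used, and the side of the ganglia is not given in the sources used here. All 52636 Ensembl genes of the deposited count tables are the members, and 21371 of them had enough reads to be tested.

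DMI is a tricyclic antidepressant that blocks the noradrenaline transporter and is used against neuropathic pain. The DRG holds the cell bodies of sensory neurons, wrapped by satellite glia, together with the first stretch of their axons, Schwann cells, vessels, fibroblasts and resident macrophages. After a nerve injury the damaged neurons switch on a regeneration program, and immune cells gather around them. In bulk tissue, fewer cells of a type and less RNA per cell cannot be told apart.

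The libraries held 54975901 to 65446093 read pairs assigned to genes. Levels are given in CPM, a gene's reads relative to the library's total after edgeR's TMM scaling, and replicates are numbered in the order of the label numbers. The labels give spinal cord as the tissue and DRG as the cell type, and both were checked against marker genes. Myelinating Schwann cell genes summed to 5523 to 7978 CPM per mouse and A-fibre neuron genes to 8854 to 10580 CPM, whereas the motor neuron genes Mnx1 and Chat had 10 and 18 counts in all 8 libraries together, and the oligodendrocyte genes Mog and Olig2 had 123 and 27. Another oligodendrocyte gene, Mobp, was higher, at 4.86 to 23.7 CPM in SNI-Saline and 1.81 to 8.25 CPM in SNI-DMI mice. Correlations of log2 CPM between replicates ran from 0.988 to 0.992. The label numbers of the DMI libraries are 21 to 24, against 33 to 36 with saline. What the numbers stand for is not given in the sources used here, and they cannot be told apart from DMI.

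Many genes differed by small amounts between SNI-DMI and SNI-Saline mice, in both directions. An adjusted p under 0.1 (edgeR's quasi-likelihood test, Benjamini-Hochberg adjustment over all genes tested) was reached by 626 genes (2.93%). Of these, 282 were higher (1.32%) and 344 lower (1.61%) in SNI-DMI than in SNI-Saline. Their median absolute log2 fold change was 0.28, and 36 of them differed by at least 1 on the log2 scale. Most of the called genes (90.1%) were protein-coding, against 73.6% of all genes tested. At the study's cut-offs for DEGs (nominal p under 0.05, absolute log2 fold change of at least 0.32) there were 412 higher (1.93%) and 812 lower genes (3.8%). The fold change cut-off on top of the adjusted p left 77 higher (0.36%) and 152 lower genes (0.711%), and a nominal p under 0.05 alone gave 1900 higher (8.89%) and 2061 lower genes (9.64%). "Rose" and "fell" denote an adjusted p under 0.1 throughout.

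**Figure D1:**
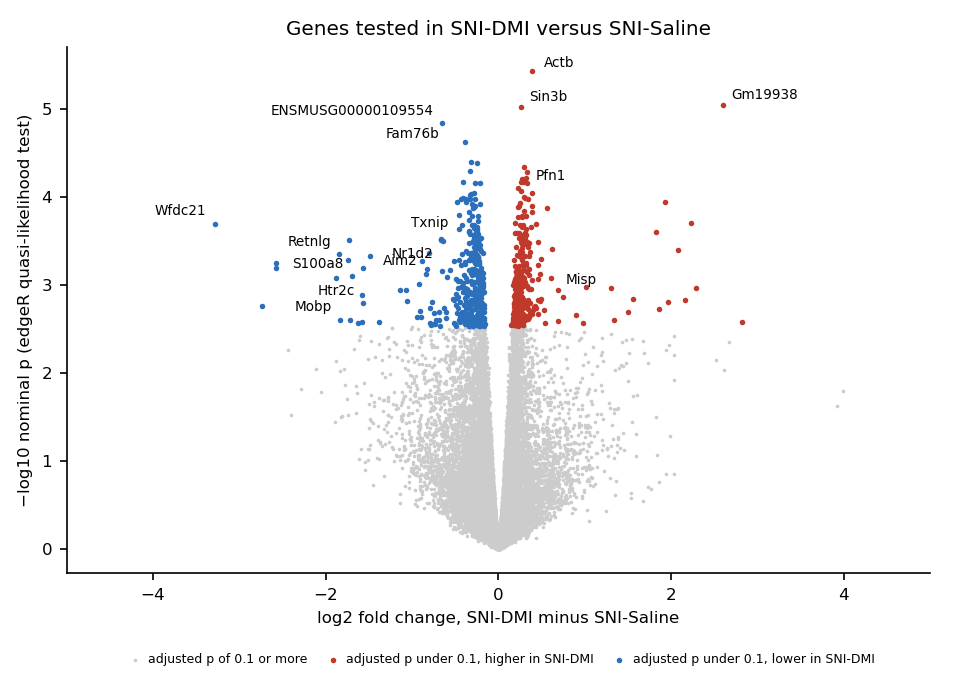
Each point is 1 of the 21371 genes tested, with the log2 fold change (SNI-DMI minus SNI-Saline) on the x axis and −log10 of the nominal p on the y axis. The 282 genes that rose (red) and the 344 that fell (blue) lie mostly close to 0 on the x axis, and the points beyond −1 include S100a8, Retnlg and Htr2c.

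These calls rest on small margins. The smallest adjusted p was 0.0622, shared by 46 genes, and no gene passed 0.1 without SNI-DMI replicate 1, 2 or 3 or without SNI-Saline replicate 1 or 3. At an unadjusted p under 0.05, 3780, 2793, 3627, 3706 and 2696 genes remained in these 5 fits, where the full set of libraries had 3961 (18.5%). Without SNI-Saline replicate 4, 38 genes passed, 33 of them higher. Beside a fold change or the median of a list, the extreme values over the fits without 1 library are given where a single library moved it most.

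Actb, which encodes cytoplasmic beta-actin, had the smallest p of all genes. It lies on chromosome 5 at 142903115 to 142906754 (GRCm38, minus strand; ENSMUSG00000029580). The 4 SNI-Saline mice had 764.5, 716, 687 and 832 CPM, and the 4 SNI-DMI mice had 1000.0, 937, 989.9 and 995 CPM. Every SNI-DMI mouse stood above every SNI-Saline mouse, with means of 980 ± 29.4 and 750 ± 63.4 CPM (SD, n = 4). The difference was 0.39 on the log2 scale (SE 0.0591, adjusted p = 0.0622; 0.34 to 0.44 over the fits without 1 library).

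Pfn1, which encodes the actin monomer-binding protein profilin 1 (chromosome 11, 70651850 to 70654644), rose as well. Its SNI-Saline values were 191, 199.8, 174 and 194 CPM, and its SNI-DMI values 227, 228.5, 227 and 243 CPM. The groups did not overlap, for a difference of 0.29 on the log2 scale (SE 0.0557, adjusted p = 0.0622). Among 31 genes of the actin cytoskeleton, 26 were higher in SNI-DMI, where 49.0% of all genes were. Actb and Pfn1 rose, or 6.5% of the list, against 1.32% of all genes. In 9 of the 31 every SNI-DMI mouse was above every SNI-Saline mouse, against 7.33% of all genes. The median log2 fold change of the list was 0.077 (0.12 without SNI-Saline replicate 2), against -0.005 over all genes tested. Ezr, which encodes the membrane-to-actin linker ezrin, did not pass (0.17, adjusted p = 0.103). Actg1, which encodes the other cytoplasmic actin, had 341 CPM in SNI-Saline and 364 in SNI-DMI (log2 fold change 0.095, adjusted p = 0.398).

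Sin3b, a scaffold of histone deacetylase complexes (chromosome 8, 72723285 to 72758201), rose with little spread within either group. SNI-Saline mice had 75.4, 75.5, 74.6 and 76.9 CPM and SNI-DMI mice 91.9, 91.9, 88.1 and 89.4 CPM. The gap between the groups was wide next to the spread within them, which gave 0.26 on the log2 scale (SE 0.0422, adjusted p = 0.0622).

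Other genes with a small p that rose have varied roles. Slc25a39 encodes a carrier that takes glutathione into mitochondria (0.30 on the log2 scale), Gstm1 a glutathione transferase (0.27), Agpat4 an enzyme of phosphatidic acid synthesis (0.33), Rrp9 a protein of the U3 small nucleolar RNP (0.32), Lin37 a part of the DREAM repressor complex (0.29) and Safb a nuclear matrix-binding protein (0.23). Gm19938, an intronic transcript at 0.06 CPM in SNI-Saline and 0.38 CPM in SNI-DMI, had a log2 fold change of 2.60, and its reads cannot be parted from unspliced RNA of the gene around it. Among coding genes of at least 1 CPM, the largest increases included those of Misp (0.69), Gm20219 (0.53), the DNA damage ubiquitin ligase Rnf8 (0.46), the transcriptional repressor Nfil3 (0.44), Sfn (0.43), the retinoid X receptor gamma gene Rxrg (0.42), Atn1 (0.40), Hmces (0.39) and Scrn2 (0.39). These 9 had adjusted p from 0.0622 to 0.0926 and no overlap between the groups.

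**Figure D2:**
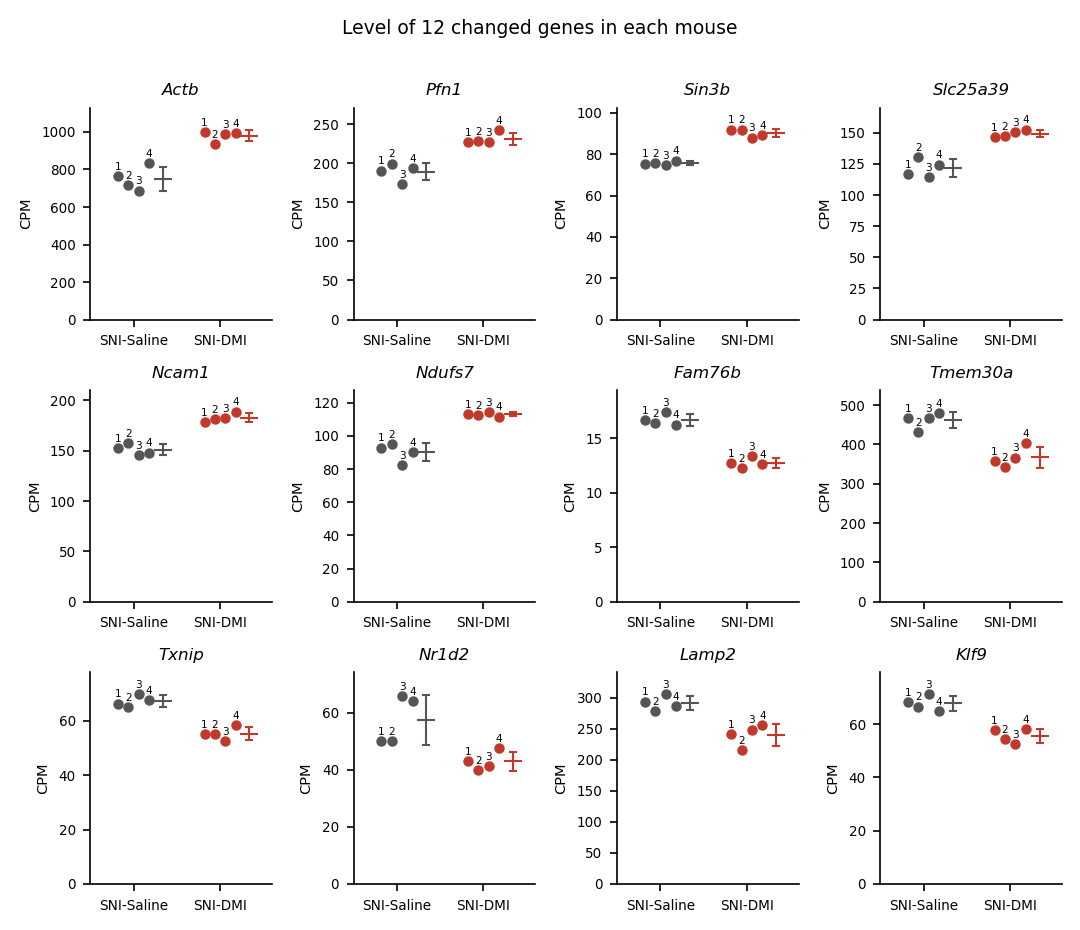
Level of 12 changed genes in CPM (y axis, from 0) in each of the 4 SNI-Saline (grey) and 4 SNI-DMI mice (red), numbered by replicate, with the mean and SD beside the points. For Actb, Pfn1, Sin3b, Slc25a39, Ncam1 and Ndufs7 every SNI-DMI mouse lies above every SNI-Saline mouse, and for Fam76b, Tmem30a, Txnip, Nr1d2, Lamp2 and Klf9 every SNI-DMI mouse lies below.

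Genes of energy metabolism and protein synthesis were mostly a little higher with DMI. Of 36 tested nuclear genes for complex I of the respiratory chain, 33 were higher, with a median log2 fold change of 0.12. Of the 36, 5 rose (Ndufs7, Ndufb10, Ndufb7, Ndufs5 and Ndufv1), or 13.9%, against 1.32% of all genes. Ndufs7, a subunit of the electron-transfer arm (chromosome 10, 80249121 to 80256794), had 92.9, 95.1, 82.4 and 90.2 CPM in SNI-Saline and 113, 112.5, 114 and 112 CPM in SNI-DMI. Its SNI-DMI values were nearly equal and lay above all SNI-Saline values (0.33, SE 0.0619, adjusted p = 0.0622). For complexes III to V, 34 of 37 genes were higher (median 0.14). Cox4i1 (0.23) and Atp5g2 (0.26) rose, or 5.4% of the 37, against 1.32% of all genes.

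Cytosolic ribosomal protein genes were higher in 78 of 81 cases, with a median of 0.15. Those that rose, among them Rpl28 and Rps15, were 3.7% of the list, against 1.32% of all genes. Mitochondrial ribosomal protein genes were higher in 67 of 76 cases (median 0.11). Of these genes 7 rose, from Mrps18a (0.21) to Mrpl52 (0.33), or 9.2%, against 1.32% of all genes. By contrast, all 13 tested mitochondrially encoded genes were lower (median -0.19; -0.11 without SNI-DMI replicate 1 or 2), and mt-Nd4l fell by 0.52 on the log2 scale (adjusted p = 0.0871). It overlaps mt-Nd4 on the same strand, so its reads may be shared. Each library's trends on GC content and exon length were also removed. The median of the mitochondrially encoded genes was then 0.018, against 0.02 over all genes tested. The medians of the nuclear lists stayed above that (0.13 for complex I and for complexes III to V, 0.11 for cytosolic and 0.10 for mitochondrial ribosomal proteins). Proteasome genes were higher in 25 of 38 cases (median 0.041; 0.018 without SNI-Saline replicate 3 and 0.085 without SNI-Saline replicate 1). The catalytic subunit gene Psmb5 alone rose (0.21, adjusted p = 0.0949), or 2.6% of the list, against 1.32% of all genes.

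Of the cholesterol synthesis and lysosome lists, 4.5% and 10.7% of the genes tested were called, against 2.93% of all genes. At an unadjusted p under 0.05 by edgeR, 10 cholesterol synthesis genes were higher and 1 lower, where 8.89% and 9.64% of all genes were. Of 22 genes of cholesterol synthesis, 16 were higher (median 0.074; 0.036 without SNI-DMI replicate 2), and Mvd, mevalonate diphosphate decarboxylase, rose (0.24, adjusted p = 0.0829). Pmvk, of the same pathway, did not pass (0.17, adjusted p = 0.122). Of 28 lysosome genes, Hexa, a hexosaminidase subunit, and Grn, which encodes progranulin, rose (0.25 and 0.32), and Lamp2 fell. Lamp2, a major lysosomal membrane protein, had 293.5, 278.5, 305 and 286 CPM in SNI-Saline and 241, 216, 248.5 and 256 CPM in SNI-DMI, with no overlap. Its log2 fold change of -0.27 (SE 0.0658, adjusted p = 0.0692) was -0.061 (adjusted p = 0.509) once those trends had been removed.

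The genes that fell were longer and had less GC than the genes that rose. The median GC content of the longest transcript was 41.4% for genes that fell, 55.1% for genes that rose and 49.4% for all, and the median lengths of the merged exons were 5688, 2784 and 3405 bases. Over all genes tested, in 10 bins by GC content, the median log2 fold change went from -0.18 in the lowest bin (28.3% to 41.2% GC, 82.1% of genes lower) to 0.099 in the highest (57.5% to 84.2% GC, 26.2% lower). By exon length it went from 0.061 in the bin of the shortest genes to -0.081 in that of the longest. The lowest GC bin alone held 166 of the genes that fell and 3 of those that rose.

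The same measure was taken mouse by mouse, as the median log2 deviation of the highest GC bin from the mean of the 8 mice minus that of the lowest. It was -0.15, 0.005, -0.24 and -0.16 in the SNI-Saline mice and 0.18, 0.26, 0.063 and 0.026 in the SNI-DMI mice. The groups did not overlap, though SNI-Saline replicate 2 and SNI-DMI replicate 4 stood close together. With the trends removed, 45 genes rose and 5 fell, and 35 of these 50 were among the 626 genes, all with the same sign. Among those that fell, ENSMUSG00000109554 and Vamp7 have no GC content here, and no trend was removed from them. The part of library preparation in the trend was not tested.

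**Figure D3:**
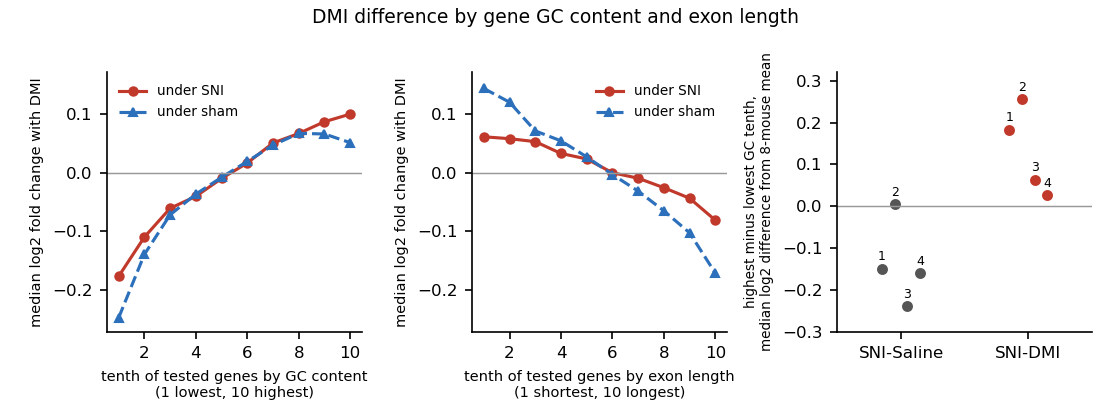
Left and middle, the median log2 fold change with DMI under SNI (red circles) and under sham (blue triangles) for tested genes split into 10 bins by GC content and by exon length. Right, for each mouse, the median log2 deviation of the highest GC bin minus that of the lowest, which lies between -0.24 and 0.005 in SNI-Saline and between 0.026 and 0.26 in SNI-DMI.

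Fam76b, a coding gene on chromosome 9 (13827716 to 13854987), showed the pattern of many genes that fell. The SNI-Saline mice had 16.7, 16.4, 17.4 and 16.2 CPM and the SNI-DMI mice 12.7, 12.2, 13.4 and 12.6 CPM. The groups stood apart with little spread, for a difference of -0.39 on the log2 scale (SE 0.0692, adjusted p = 0.0622). With the GC and length trends removed it was -0.20 (adjusted p = 0.18). Tmem30a, a subunit of the flippases that keep phosphatidylserine on the inner side of membranes (chromosome 9, 79768943 to 79793507), had 467, 432, 467 and 480.5 CPM with saline and 357, 342, 366 and 403 CPM with DMI. All DMI mice were below all saline mice (-0.33, SE 0.0662, adjusted p = 0.0622; -0.13, adjusted p = 0.205, with the trends removed).

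The other genes that fell with the smallest p were ENSMUSG00000109554 (-0.65), Triqk (-0.32), the ubiquitin ligase substrate receptor Crbn (-0.25), the membrane-bound ubiquitin ligase Rnf13 (-0.32), the centromere protein gene Itgb3bp (-0.41), the miR-22 host Mir22hg (-0.27), Zfp664 (-0.21), the phosphatase regulator Ppp4r3b (-0.28), the iron-regulatory protein Ireb2 (-0.32) and the vesicle SNARE Vamp7 (-0.41). Of these 10, ENSMUSG00000109554 and Vamp7 had an adjusted p under 0.1 in the fit with the trends removed (0.0665 and 0.0815). Neither has a GC content here, so no trend was removed from them, and that fit cannot tell whether they follow the trends. The strand setting of the counting is not given in the sources used here, so the reads of Crbn, Rnf13, Itgb3bp and Ppp4r3b, whose exons overlap a gene on the opposite strand, are uncertain. The same holds for Ncam1, Txnip, Rrp9, Lin37, Hmces, Hexa, Grn, Cox4i1, Rpl28, Htr1b, Kcnk3, Kcnk2, Irf2bp2, Dbp and Slc1a2. Vamp7 is placed on an unlocalized scaffold in this build.

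The larger decreases included 3 zinc finger genes, Zfp984 (-0.82), Zfp758 (-0.67) and Zfp982 (-0.59), along with Dnajc22 (-0.81), Gm6685 (-0.77), the synaptic protein gene Csmd3 (-0.73), the myeloid lectin gene Cd33 (-0.72) and the monocarboxylate transporter gene Slc16a4 (-0.65). Many Zfp genes encode DNA-binding repressors of transposable elements, and many lie in clusters of similar copies between which reads may be split. Of 365 Zfp genes tested, 236 were lower, 22 fell and 1 rose (Zfp414), and their median was -0.061 (-0.033 without SNI-Saline replicate 3). The called genes made up 6.3% of the list, against 2.93% of all genes. With the trends removed the median was 0.018, against 0.02 over all genes tested, and 1 gene of the list passed.

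**Figure D4:**
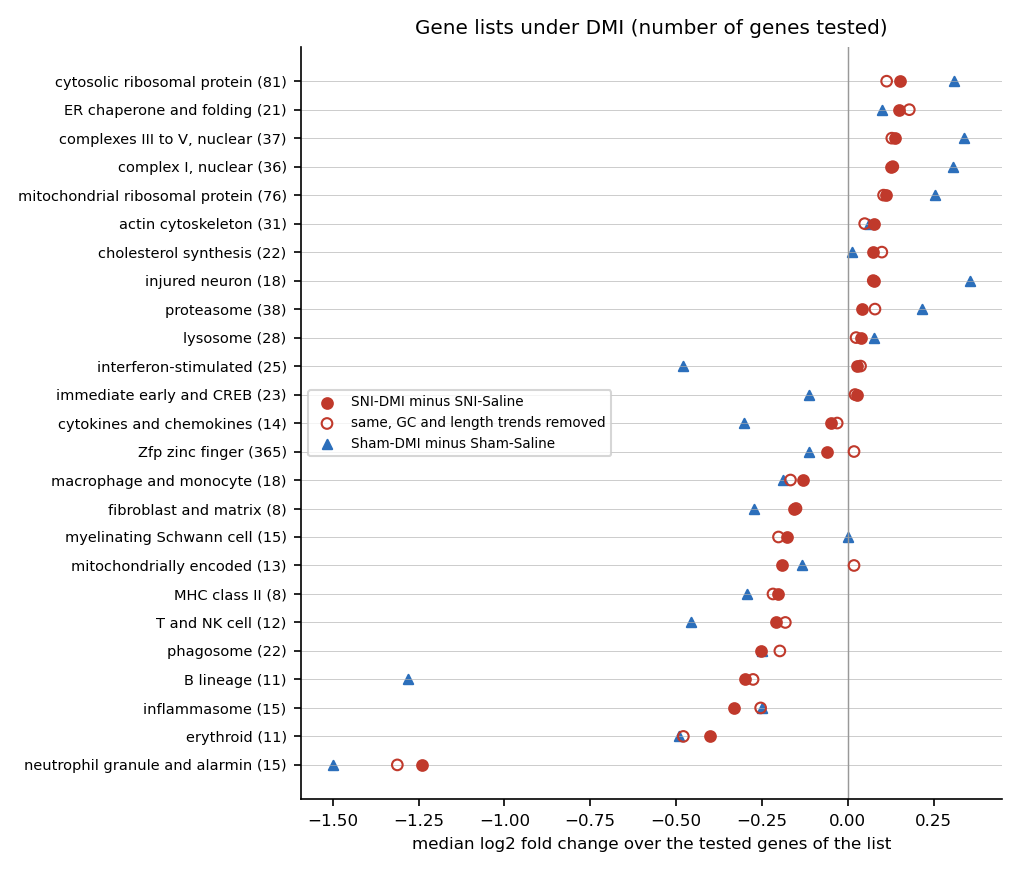
Median log2 fold change (x axis) over the tested genes of 25 lists, with the number of genes tested beside each name. Filled red circles are SNI-DMI minus SNI-Saline, open circles the same after removal of the GC and length trends, and blue triangles Sham-DMI minus Sham-Saline. The neutrophil list lies lowest at -1.24. With the trends removed, the mitochondrially encoded and Zfp lists move from below 0 to near the median of all genes tested, 0.02.

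Neutrophil genes had the lowest median of all lists. Neutrophils are short-lived granulocytes, rare in uninjured ganglia, and carry antimicrobial granule proteins and the alarmins S100A8 and S100A9. C/EBP factors are known regulators of their granule genes. The 250 bases before the start of S100a9 and Retnlg are shown because neither gene overlapped between the groups and both windows lie outside the annotated gene. Sequences are from RefSeq on GRCm38.p6, 5′ to 3′ on the strand of the gene, and capitals mark the motif TTGCNNAA in either orientation.
S100a9, chr3:90695722-90695971, minus strand: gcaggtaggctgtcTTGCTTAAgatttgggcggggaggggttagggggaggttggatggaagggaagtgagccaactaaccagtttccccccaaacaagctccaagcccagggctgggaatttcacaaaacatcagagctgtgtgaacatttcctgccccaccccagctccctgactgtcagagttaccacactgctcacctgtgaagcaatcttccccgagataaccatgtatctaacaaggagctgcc
Retnlg, chr16:48872358-48872607, plus strand: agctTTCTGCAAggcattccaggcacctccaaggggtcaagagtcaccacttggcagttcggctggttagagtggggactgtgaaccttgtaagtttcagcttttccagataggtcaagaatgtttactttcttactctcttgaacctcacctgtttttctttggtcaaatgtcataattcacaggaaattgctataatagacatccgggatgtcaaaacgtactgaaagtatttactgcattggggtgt
The motif was found once in each window, on the other strand in Retnlg, and in 9.56% of all 32851 windows of that length. Of the 16 windows of neutrophil genes in the table, 8 held it and 8 did not. The CArG box, searched likewise, was in neither window and in 1.47% of all.

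S100a8, which encodes the alarmin S100A8 (chromosome 3, 90668978 to 90670035), had 5.05, 9.89, 3.58 and 4.67 CPM in the SNI-Saline mice. The SNI-DMI mice had 1.79, 2.48, 1.95 and 0.934 CPM. Replicate 2 of SNI-Saline was the highest by far, and the groups did not overlap. The log2 difference was -1.70 with an SE of 0.422 (adjusted p = 0.0747). Leaving out SNI-Saline replicate 2 gave -1.29. With the GC and length trends removed, the adjusted p was 0.122 for S100a8 and 0.106 for Retnlg.

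Retnlg, a resistin-like gene of neutrophils (chromosome 16, 48872621 to 48874496), had 0.833, 1.69, 0.61 and 0.84 CPM with saline and 0.558, 0.199, 0.165 and 0.196 CPM with DMI. SNI-DMI replicate 1 came close to SNI-Saline replicate 3, with no overlap. The log2 difference was -1.84 with an SE of 0.43 (adjusted p = 0.0674), and it was -1.44 without SNI-Saline replicate 2 and -2.39 without SNI-DMI replicate 1. S100a9 had 8.33, 16.3, 4.56 and 7.55 CPM with saline and 3.76, 4.17, 4.37 and 1.36 CPM with DMI (-1.43, adjusted p = 0.124).

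Of 18 neutrophil genes, 15 could be tested, and Ctsg, Cxcr2 and Fcnb had 48, 35 and 29 counts in the 8 libraries. S100a8 and Retnlg fell (13.3% of the list, against 1.61% of all genes), and 13 of 15 were lower, where 51.0% of all genes were. In 4 of them (S100a8, S100a9, Lcn2 and Retnlg) the groups did not overlap, against 5.97% of all genes in that direction. The median log2 fold change was -1.24, it was -0.74 without SNI-Saline replicate 2, and it was -1.31 with the trends removed. Summed over the list, SNI-Saline mice had 31.8, 65.0, 22.5 and 29.8 CPM and SNI-DMI mice 17.5, 18.1, 19.1 and 8.61 CPM. Prtn3 (0.23) and Cebpe (0.38, adjusted p = 0.69), a granulocyte transcription factor, were not lower. Of 11 erythroid genes, 10 were below SNI-Saline (median -0.40; -0.17 without SNI-Saline replicate 2 and -0.75 without SNI-DMI replicate 2). None passed by edgeR, and 1 was lower at an unadjusted p under 0.05, where 9.64% of all genes were. The share of blood in the tissue was not tested.

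**Figure D5:**
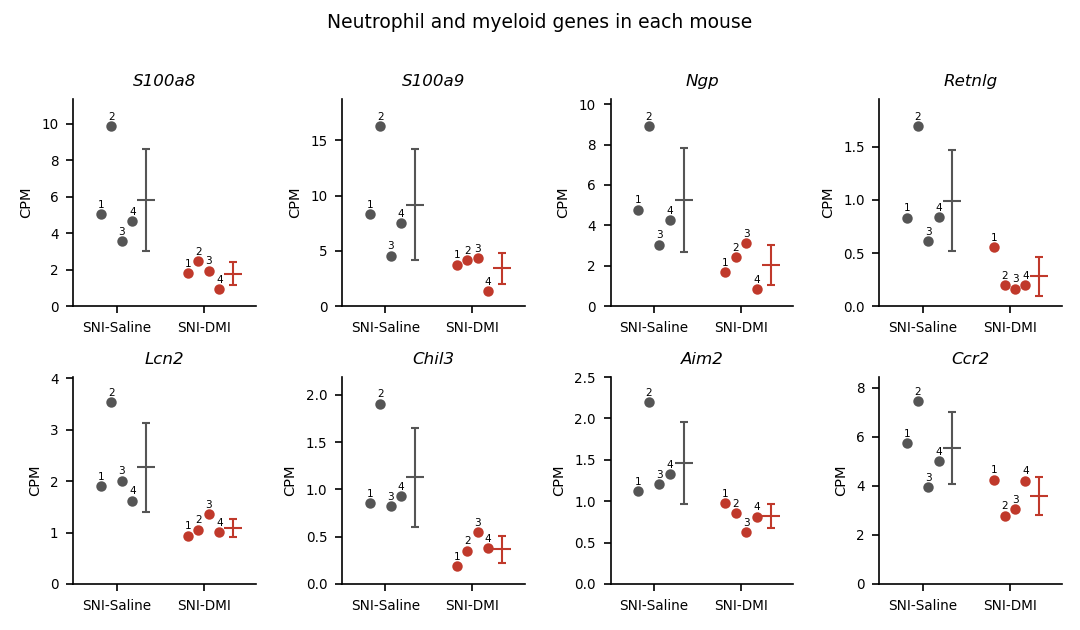
CPM (y axis, from 0) of 8 neutrophil and myeloid genes in each SNI-Saline (grey) and SNI-DMI mouse (red), numbered by replicate, with mean and SD. SNI-Saline replicate 2 is the highest mouse in each panel, and the groups overlap for Ngp and Ccr2.

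Macrophage genes differed less. Of 18, 17 were lower, with a median of -0.13, and the sign turned without SNI-Saline replicate 2 (0.064), and it was -0.30 without SNI-DMI replicate 1. The complement genes C1qa (-0.009), C1qb (-0.092) and C1qc (-0.031), which mark resident macrophages, were near 0. Cd163, another macrophage gene of the list, gave -0.33 (adjusted p = 0.217). Ccr2, the chemokine receptor of recruited monocytes, fell by 0.63 (adjusted p = 0.0904). Its values were 5.72, 7.45, 3.95 and 4.996 CPM with saline and 4.25, 2.79, 3.05 and 4.21 CPM with DMI, and the groups overlapped. Without SNI-Saline replicate 2 the difference was -0.44. Chil3, a chitinase-like gene of alternatively activated macrophages that the study names, had 0.852, 1.91, 0.819 and 0.932 CPM with saline and 0.192, 0.352, 0.544 and 0.377 CPM with DMI. The groups did not overlap, and the difference of -1.61 (SE 0.494) had an adjusted p of 0.11.

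Among inflammasome genes, 14 of 15 were lower (median -0.33; -0.19 without SNI-Saline replicate 2). Aim2 and Txnip fell, or 13.3% of the list, against 1.61% of all genes. Txnip, a thioredoxin-binding protein linked to NLRP3 and to glucose uptake (chromosome 3, 96557957 to 96561883), had 66.4, 65.2, 69.9 and 67.8 CPM with saline and 55.2, 55.2, 52.6 and 58.4 CPM with DMI. No mouse crossed over, for a log2 difference of -0.28 (SE 0.0627, adjusted p = 0.063). Aim2, a sensor of cytosolic DNA, had 1.123, 2.20, 1.21 and 1.33 CPM with saline and 0.976, 0.858, 0.627 and 0.814 CPM with DMI. The groups did not overlap, and the decrease of 0.84 on the log2 scale (adjusted p = 0.0735) was 0.56 without SNI-Saline replicate 2. Nlrp3 itself (-1.24, adjusted p = 0.102) overlapped between the groups, and Il18 (-0.036, adjusted p = 0.919) and Casp1 (-0.097, adjusted p = 0.737) were close to 0.

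Other immune lists gave few calls. Of 22 phagosome genes, 17 were lower (median -0.25; -0.058 without SNI-Saline replicate 2). Lamp2 alone fell, or 4.5% of the list, against 1.61% of all genes. MHC class II genes were lower in 7 of 8 cases (median -0.20; 0.096 without SNI-Saline replicate 2 and -0.42 without SNI-DMI replicate 1). T and NK cell genes were lower in 10 of 12 (median -0.21; 0.004 without SNI-DMI replicate 3 but -0.46 without SNI-DMI replicate 1). Interferon-stimulated genes were lower in 12 of 25 (median 0.027; -0.19 without SNI-DMI replicate 4 but 0.11 without SNI-DMI replicate 2). In these 3 lists no gene passed by edgeR, and 1 had an unadjusted p under 0.05, where 18.5% of all genes did. Of 14 cytokine and chemokine genes tested, 10 were lower (median -0.050; -0.15 without SNI-DMI replicate 4 but 0.045 without SNI-DMI replicate 2). Il6 had 0.344, 0.261, 0.353 and 0.474 CPM with saline and 0.0523, 0.168, 0.165 and 0.121 CPM with DMI. All DMI mice lay below all saline mice, at very low levels, and the difference of -1.48 (SE 0.453) had an adjusted p of 0.11. Ifng had 10, 4, 3 and 0 counts in the saline and 7, 1, 0 and 2 counts in the DMI libraries, too few to test, and a count of 0 allows up to 3.

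B-lineage genes were lower in 8 of 11 cases (median -0.30; 0.012 without SNI-Saline replicate 2 and -0.48 without SNI-Saline replicate 4). In this list 1 gene, not reported here, fell (9.1%, against 1.61% of all genes), while Cd79a (-0.035) and Ighm (-0.12) were near 0.

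Neuronal genes showed small differences in both directions. Ncam1, a neural cell adhesion molecule (chromosome 9, 49502136 to 49798925), had 153, 157.5, 145 and 148 CPM with saline and 179, 181.5, 182 and 189 CPM with DMI. The groups were apart, with a log2 difference of 0.28 (SE 0.0534, adjusted p = 0.0622), and 0.30 (adjusted p = 0.0665) with the trends removed. The list of injured-neuron genes had a median of 0.076 (11 of 18 higher; -0.092 without SNI-DMI replicate 4 but 0.17 without SNI-DMI replicate 3). Of these, Gal, which encodes the neuropeptide galanin, had 37.3, 43.7, 24.1 and 25.4 CPM with saline and 50.5, 44.5, 50.8 and 57.9 CPM with DMI. The lowest DMI mouse stood just above the highest saline mouse, and the difference of 0.64 had an adjusted p of 0.107. Peptidergic nociceptor genes were higher in 6 of 7 cases (median 0.086), and A-fibre genes lower in 11 of 16 (median -0.084; -0.052 without SNI-Saline replicate 1), among them the neurotrophin receptor gene Ntrk3 (-0.42, adjusted p = 0.13). No gene of either list passed by edgeR. At an unadjusted p under 0.05, 3 were higher and 4 lower, where 8.89% and 9.64% of all genes were.

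Receptor genes for monoamines and GABA and genes of background potassium channels were examined next. Htr2c, the serotonin 2C receptor (chromosome X, 146962513 to 147197277), fell, with a log2 difference of -1.57 and an SE of 0.422 (adjusted p = 0.0883). Its level was low, at 0.127, 0.342, 0.321 and 0.458 CPM with saline and 0.174, 0.0459, 0.0989 and 0.105 CPM with DMI. SNI-DMI replicate 1 lay above SNI-Saline replicate 1, so the groups overlapped. Of the 13 other serotonin receptor genes tested, Htr1b was the nearest to a call (-0.28, adjusted p = 0.105).

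Gabrg3, the gamma 3 subunit gene of the GABA-A receptor, had 4.203, 4.11, 2.23 and 2.21 CPM with saline and 4.01, 4.76, 5.29 and 4.27 CPM with DMI. SNI-Saline replicates 1 and 2 were level with the DMI mice, and the difference of 0.53 had an adjusted p of 0.281.

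The same 2 saline mice were also the higher ones for other genes. Kcnk3, a background potassium channel, had 26.5, 35.8, 17.3 and 19.6 CPM with saline and 37.2, 43.1, 38.5 and 37.7 CPM with DMI, with no overlap (0.66, adjusted p = 0.17). Kcnk2, a channel of the same family, gave 0.51 (adjusted p = 0.117). Drd2, the dopamine D2 receptor, had 4.33, 3.31, 1.66 and 1.86 CPM with saline and 4.37, 4.46, 3.02 and 4.39 CPM with DMI (0.55, adjusted p = 0.371), with overlap.

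Th, tyrosine hydroxylase of dopamine and noradrenaline synthesis and a marker of C-fibre low-threshold mechanoreceptors, had 140.3, 155, 139.6 and 125 CPM with saline and 159, 210.1, 211.5 and 154.5 CPM with DMI. SNI-DMI replicate 4 lay just below SNI-Saline replicate 2, and the difference of 0.39 had an adjusted p of 0.127. Slc6a2, the noradrenaline transporter that DMI blocks, had 0.0544, 0.147, 0.257 and 0.0611 CPM with saline and 0.0523, 0.153, 0.148 and 0.271 CPM with DMI. The groups overlapped fully (0.27, SE 0.595, adjusted p = 0.842). Maoa, monoamine oxidase A, did not pass (-0.16, adjusted p = 0.119).

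Adamts4, a protease of matrix proteoglycans, had 1.23, 2.25, 1.49 and 1.65 CPM with saline and 1.29, 0.597, 1.07 and 0.603 CPM with DMI. The groups overlapped, the difference of -0.90 had an adjusted p of 0.109, and exons of another gene lie opposite it. Of the DEGs that the study names for this comparison, Il6, Chil3, S100a8, Htr2c, Kcnk3, Th, Actb and Adamts4 met its cut-offs here. Gabrg3 and Drd2 did not, with a nominal p of 0.0554 and 0.106 by edgeR. The transcript levels of 3 regulators that the study names differed by 0.27 for Irf2bp2 (adjusted p = 0.105), 0.076 for Zfp36 (0.774) and 0.38 for Cebpe, which is no measure of their activity.

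Among glial lists, 1 of 10 satellite glia genes rose (10%, against 1.32% of all genes), and Schwann cell genes had no call. Fabp7, a fatty acid-binding protein of satellite glia (chromosome 10, 57784881 to 57788450), had 259.5, 257.5, 179.5 and 200.2 CPM with saline and 286, 263, 290.5 and 298 CPM with DMI. The groups did not overlap, with SNI-DMI replicate 2 close to the upper saline mice, for a log2 difference of 0.34 and an SE of 0.0974 (adjusted p = 0.0973). Kcnj10, the satellite glial potassium channel, gave 0.25 (adjusted p = 0.126), and Cdh19, a glial cadherin, -0.44 (adjusted p = 0.124). Of 15 myelinating Schwann cell genes 14 were lower (median -0.18), as were all 8 fibroblast genes (median -0.16; -0.062 without SNI-Saline replicate 3 and -0.24 without SNI-DMI replicate 4). At an unadjusted p under 0.05, 3 Schwann cell genes and 0 fibroblast genes were lower by edgeR, where 9.64% of all genes were.

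Clock and steroid-responsive genes included a few of the changed genes. Nr1d2, a circadian repressor also known as REV-ERB beta (chromosome 14, 18204054 to 18239127), had 49.98, 49.98, 65.8 and 64.0 CPM with saline and 43.1, 39.8, 41.2 and 47.6 CPM with DMI. All DMI mice were lower, for a log2 difference of -0.42 with an SE of 0.098 (adjusted p = 0.0674). SNI-Saline replicates 3 and 4 stood above replicates 1 and 2 for Nr1d2 and also for Dbp (10.1, 12.9, 23.9 and 20.9 CPM, against 8.91 to 10.7 CPM with DMI) and Per3 (20.7, 23.7, 37.1 and 28.8 CPM, against 18.4 to 20.2 CPM). The differences of Dbp (-0.75, adjusted p = 0.114), Per3 (-0.52, adjusted p = 0.115), Ciart (-0.52, adjusted p = 0.118) and Nr1d1 (-0.47, adjusted p = 0.137) did not pass, nor did that of Arntl, the activator of the clock (0.39, adjusted p = 0.145). Of 17 clock genes 11 were lower (median -0.12), and Nr1d2 alone fell, or 5.9% of the list, against 1.61% of all genes. The hour of dissection is not given in the sources used here. Among 14 glucocorticoid-responsive genes, Mt1, a metallothionein, rose (0.29, adjusted p = 0.0959) and Klf9 fell (-0.28, adjusted p = 0.0655), and the median was -0.005. The called genes made up 14.3% of the list, against 2.93% of all genes.

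Markers of neighbouring tissue varied between mice of both groups. Skeletal muscle genes summed to 275 CPM in SNI-DMI replicate 2, 77.2 CPM in SNI-Saline replicate 2 and 2.77 to 18 CPM in the other 6 mice. Their median log2 fold change of 1.44 was -3.01 without SNI-DMI replicate 2 and 3.12 without SNI-Saline replicate 2, and no member passed. The glutamate transporter gene Slc1a2, from the spinal cord list, fell by 0.49 on the log2 scale (adjusted p = 0.0999; -0.33 without SNI-Saline replicate 4) with overlap between the groups. Its list summed to 18.9, 19.4, 26.4 and 27.6 CPM with saline and 17.1, 15.6, 20.2 and 17.7 CPM with DMI.

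The effect of DMI in sham mice, measured on other libraries, is given beside these values. The label numbers are 17 to 20 for Sham-DMI and 37 to 40 for Sham-Saline. Here too the numbers cannot be told apart from DMI, and a difference that goes with them could be shared by both comparisons. Of the 626 genes called under SNI, 601 (96%) had the same sign in Sham-DMI versus Sham-Saline, where 69.3% of all genes did. Of those, 443 also had an adjusted p under 0.1 there, against 23.4% of all genes in either direction. The GC trend was present under sham as well, with medians from -0.25 in the lowest GC bin to 0.051 in the highest. Under sham the log2 fold changes were 0.29 for Actb, 0.28 for Pfn1, 0.48 for Ndufs7, -1.84 for S100a8 and -2.22 for Retnlg, and the neutrophil list had a median of -1.50. Ncam1 (-0.057), Kcnk3 (-0.14), Kcnk2 (-0.23) and Gabrg3 (-0.51) had the opposite sign.

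No difference between the DMI effects under SNI and sham passed an adjusted p of 0.1 in edgeR, with a smallest adjusted p of 0.59, 1692 genes (7.92%) at an unadjusted p under 0.05 and 16 genes by DESeq2 on all 16 libraries. The difference was 0.33 for Ncam1 (adjusted p = 0.611), 0.79 for Kcnk3 and 0.74 for Kcnk2 (both 0.619), -2.01 for Il6 (0.619) and 0.14 for S100a8 (0.966). For the injury itself, which shares the SNI-Saline libraries, the log2 fold changes of SNI-Saline versus Sham-Saline were 0.015 for Actb, -0.11 for Ncam1, -0.002 for S100a8, -0.12 for Retnlg, 0.26 for Txnip and 0.48 for Gal.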

How the data were processed

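Total RNA from L3 to L6 DRGs was made into stranded mRNA libraries by the authors and sequenced in pairs of 50 bases. Per the submitters' processing notes, HISAT2 and HTSeq were used with mm10, and versions are not given in the sources used here. The deposited values are raw counts per Ensembl gene, without normalization. The closing lines of reads without a gene were left out, which kept 79.7% to 81.0% of pairs in the SNI libraries. Coordinates are from GENCODE M21, which holds 52489 of the 52636 genes.

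The tests were those of edgeR 4.0.16 under R 4.3.3. After filterByExpr on the 4 groups and TMM scaling, glmQLFit and glmQLFTest were run once over the 16 libraries, and p-values were adjusted by Benjamini and Hochberg. GC content and exon length trends were removed with mgcv 1.9.3 (basis size of 8) as offsets. Both values were known for 21324 of the genes tested, and no trend was removed from the others. Gene lists are described by counts and medians only. Members and lists were chosen with earlier results of these data known. Named genes are those the study names, the 12 higher and 12 lower with the smallest p and the 10 and 10 with the largest change (at least 1 CPM, no overlap), the members of each list with the smallest p, Slc6a2, and 11 genes chosen after their values were seen, among them S100a9, Ngp, Arntl, Nr1d1 and Ciart. Actg1, the C1q genes, Casp1, Cd79a, Ighm, Prtn3, Ndufs5, Ndufv1, Mrps18a and Zfp414, named to complete a list, and the promoter of S100a9 were also chosen after values were seen. Some genes that the rule names are not reported here. The procedure was tested on simulated data. Alternatives used DESeq2 1.42.0, sva 3.50.0, other filters and scalings, a replicate block, and each library left out. The spread between mice limited the precision, and so did the depth for genes with few counts, such as Htr2c, Il6 and Gm19938.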

Additional observations from a re-analysis of the deposited data

Results flagged for a closer look

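In 20 of 352 groups of 4 mice (5.7%), 1 mouse stood far from the other 3 by Dixon's ratio, the gap to the nearest mouse divided by the range. Chance alone flags about 1 in 20. In SNI-DMI the mouse was the lowest for Drd2 (0.952), Cd33 (0.931) and Zfp982 (0.833), all replicate 3, for P2rx3 (0.984) and S100a9 (0.872), both replicate 4, for Maoa (0.917, replicate 1) and for Actb (0.841, replicate 2). It was the highest for Pfn1 (0.904) and Grn (0.836), both replicate 4, Ndufb10 (0.846, replicate 3) and Retnlg (0.854, replicate 1). In SNI-Saline it was the highest for Chil3 (0.849, replicate 2) and P2rx3 (0.956, replicate 3), and the lowest for Htr7 (0.863, replicate 3) and Nr4a2 (0.931, replicate 1). Of the mean log2 CPM of lists, SNI-Saline replicate 2 was the highest for T and NK cell genes (0.845) and proliferation genes (0.89). In SNI-DMI, replicate 2 was the highest for skeletal muscle genes (0.938), replicate 1 the lowest for dopamine receptors (0.911) and replicate 3 the lowest for two-pore potassium channels (0.977).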

How the results depend on the processing

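The counts of called genes depended on the setting more than the fold changes did. At an adjusted p under 0.1, the fits without 1 library gave 0 to 879 higher and 0 to 963 lower genes, with 337 to 684 higher and 587 to 927 lower DEGs at the nominal cut-offs. A minimum change of 0.32 on the log2 scale left 77 higher and 152 lower genes, 1 surrogate variable 117 and 151, and the removal of GC and length trends 45 and 5. edgeR on the 8 SNI libraries gave 905 and 907, DESeq2 on all 16 libraries 847 and 1012, and DESeq2 on the 8 SNI libraries 1475 and 1539. The replicate numbers did not pair the mice (correlations of deviations 0.003, 0.16, 0.18 and -0.003, and 2 of 4 SNI-DMI libraries correlated best with their own number). With the number as a block, 86 higher and 86 lower genes passed, and with the trends removed as well, 0 and 0, where 372 higher and 534 lower DEGs remained at the nominal cut-offs. Without a cut-off on the fold change there were 1900 higher and 2061 lower genes at a nominal p under 0.05. All genes with at least 1 count gave 743 higher DEGs, and the removed trends 531 lower DEGs. The difference of the DMI effects had 0 to 1 genes in the fits without 1 library, 16 with DESeq2 on all 16 libraries and 1 with trends removed and block. Directions turned for Maoa (0.011 with trends removed, with and without the block), Psmc6 (0.081, and 0.082 with the block) and mt-Nd6 (0.000 with trends removed and block). Over the fits without 1 library Il18 ran from -0.11 to 0.048 and Slc6a2 from -0.13 to 0.83. The causes were not tested.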

Other observations

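Genes of protein folding in the endoplasmic reticulum were put in a list after their values had been seen, so that their count is a description. Of 21 such genes 17 were higher in SNI-DMI (median log2 fold change 0.15; 0.12 to 0.19 over the fits without 1 library, and 0.18 with the GC and length trends removed). Dnajb11, a co-chaperone of the lumen (46.7 ± 1.59 and 55.2 ± 2.64 CPM, SD, n = 4), Pdia4, Calr, Hyou1, Creld2 and the transcription factor gene Xbp1 rose, by 0.18 (Calr) to 0.32 (Creld2). Dnajb9, another co-chaperone, fell by 0.25. The called genes made up 33.3% of the list, against 2.93% of all genes. Hspa5, which encodes the chaperone BiP, had 297, 288, 285 and 284 CPM with saline and 318, 304.5, 335 and 324 CPM with DMI, without overlap (0.15, adjusted p = 0.13). Of 15 cytosolic heat shock genes, also listed afterwards, 11 were higher (median 0.069). Hsp90ab1 (0.22) and Hspb1 (0.33) rose, or 13.3% of that list, against 1.32% of all genes.

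Mobp, a myelin gene of oligodendrocytes chosen after its values were seen, had 4.86, 9.30, 18.2 and 23.7 CPM with saline and 2.81, 2.94, 8.25 and 1.81 CPM with DMI. It fell by 1.83 on the log2 scale (adjusted p = 0.0973), with overlap, and the difference ran from -2.46 without SNI-DMI replicate 3 to -1.46 without SNI-Saline replicate 4. The largest decrease among called genes was that of Wfdc21, also chosen afterwards, at 0.0642 to 0.57 CPM with saline and 0.0151 to 0.0349 CPM with DMI (-3.29, adjusted p = 0.063). Under sham it was -3.26.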
